A study of Homo sapiens with 24 samples.

Results

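The 38 genes described here encode the enzymes and carriers that build fatty acids, tie them to coenzyme A, and burn them. They were taken from the raw count column of all 24 libraries by gene symbol, and each matched exactly 1 of the 60675 genes counted. Of these, 13 belong to synthesis, elongation and desaturation, 4 are long-chain acyl-CoA synthetases, and 21 belong to oxidation in mitochondria and peroxisomes. The cells were the prostate cancer lines LNCaP:C42, described in the series as castrate resistant but sensitive to the androgen receptor blocker enzalutamide, and 22Rv1, described as resistant to enzalutamide. Either METTL3, an RNA methyltransferase, was targeted with pooled siRNAs (siMETTL3) or a control pool with no target was used (siSCR). At 48 h a second transfection followed, with ethanol as vehicle or the synthetic androgen R1881 at 1 nM for 72 h. All cells, controls included, were transfected and grown in phenol red-free medium with charcoal-stripped serum, which is poor in steroids. This gave 8 groups of 3 libraries. A pool of siRNAs lowers a transcript without removing the gene, and the 2 kinds of disease are each represented by 1 line. Levels are given in CPM, that is a gene's fragments scaled for library size in the same way over all 24 libraries, and, where genes are compared with each other, in FPKM, the same value per kilobase of exon. The changes are log2 fold changes from edgeR's quasi-likelihood test, with p-values adjusted over all genes tested, and a gene was called where its adjusted p was under 0.05 and it moved by 1.5-fold or more (0.585 on the log2 scale). The sources do not say that libraries of a group came from separate cultures, so the p-values measure the spread between these libraries, which may be technical. In bulk RNA more expressing cells and more RNA per cell cannot be told apart.

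Fatty acid synthesis starts in the cytosol, where acetyl-CoA is carboxylated to malonyl-CoA and joined into palmitate by fatty acid synthase, after which elongases lengthen the chain and desaturases add double bonds. Oxidation takes the opposite route, with fatty acids tied to coenzyme A, carried into mitochondria as carnitine esters or taken up by peroxisomes, and cut down by pairs of carbons. Androgen is known to raise lipid synthesis in prostate cells, in part through the sterol regulatory element binding proteins, and several enzymes of both routes are raised in prostate cancer.

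The libraries held 15716224 to 21306019 counted fragments, with a median of 17671721.5, so that 3 counts equalled 0.141 to 0.191 CPM. This floor and the depth cover counting error only. All 8 markers of prostate luminal cells that were checked had a mean of at least 1 CPM in both lines, summing to 2575 to 3807 CPM in LNCaP:C42 and 1259 to 1460 CPM in 22Rv1. At least 1 CPM was reached by 2 of 6 fibroblast markers in each line (COL1A1 and PDGFRB in LNCaP:C42, COL1A1 and LUM in 22Rv1, with summed levels of 40.8 to 73.5 and 16.9 to 33.6 CPM), 0 of 5 leukocyte markers in either line, 1 of 4 endothelial markers in LNCaP:C42 (VWF) and 0 of 4 in 22Rv1, and 1 of 5 basal and neuroendocrine markers in each (SYP), a list that summed to 0.876 to 2.60 CPM in LNCaP:C42 and 78.6 to 123 CPM in 22Rv1. The part of these genes in the results was not tested. In 5 groups 1 library stood apart from the other two, replicate 3 of siSCR vehicle, replicate 1 of siSCR R1881 and replicate 1 of siMETTL3 vehicle in LNCaP:C42, and replicate 3 of siSCR vehicle and replicate 1 of siMETTL3 vehicle in 22Rv1. Where the call of a named gene turned on these libraries, the value without them is given as well. They were picked by their distance from their replicates in these same counts. Leaving them out therefore narrows the spread within groups, and p-values from that fit tend to be too small.

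METTL3, the target of the knockdown, checks the labels. In LNCaP:C42 it stood at 30.7, 28.1 and 26.2 CPM with siSCR and 19.5, 19.6 and 17.3 CPM with siMETTL3 in vehicle, and at 30.2, 33.1 and 35.2 against 22.3, 21.7 and 22.4 CPM with R1881. The libraries of the 2 pools did not overlap, and METTL3 fell by 0.61 ± 0.11 (SE) on the log2 scale in vehicle (adjusted p = 0.0127), while the change with R1881 was −0.57 ± 0.11 (SE), adjusted p = 0.0256, just under the 1.5-fold threshold and past it without the 5 libraries (−0.65). In 22Rv1 it was 47.6, 46.3 and 46.9 against 25.6, 24.7 and 26.1 CPM in vehicle and 51.6, 48.6 and 51 against 21.8, 25.1 and 21.5 CPM with R1881. Here too every siMETTL3 library lay below every siSCR library, with log2 changes of −0.89 ± 0.08 (SE), adjusted p = 1.48e-06, and −1.18 ± 0.08, adjusted p = 1.29e-08. The LNCaP:C42 call in vehicle was lost in 4 of 6 fits that left out 1 library (adjusted p up to 0.0982), so the knockdown comparisons below rest on a reduction of the transcript by 1.5-fold or so in that line.

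Promoter sequences were read from RefSeq (GRCh38.p14) to show what lies in front of a few members that changed. A window was given for 33 of the 38 genes (12 of synthesis, all 4 synthetases and 17 of oxidation, without FASN, EHHADH, DECR1, ACAA1 and CRAT), and the 250 bases before the start site were searched on both strands for letters bound by factors known from lipid genes and from androgen action. ACSL3 and ELOVL5 are shown because they rose with R1881 in both lines, and SCD because its direction differed between the lines. ACSL1 is shown because it held the only match to the sterol regulatory element in the windows searched. Members without a window, FASN among them, and bases further away were not searched. Capitals mark TCACNCCAC (sterol regulatory element), CACGTG (E-box) and CCAAT boxes, in either orientation, and each sequence is written 5′ to 3′ on the strand of its gene.
ACSL3 (chr2:222860786-222861035, plus strand): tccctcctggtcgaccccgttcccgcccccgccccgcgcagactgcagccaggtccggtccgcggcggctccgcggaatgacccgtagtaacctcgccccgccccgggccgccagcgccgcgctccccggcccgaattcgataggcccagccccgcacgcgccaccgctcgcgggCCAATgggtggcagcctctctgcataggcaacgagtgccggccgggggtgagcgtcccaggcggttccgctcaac
ELOVL5 (chr6:53348951-53349200, minus strand): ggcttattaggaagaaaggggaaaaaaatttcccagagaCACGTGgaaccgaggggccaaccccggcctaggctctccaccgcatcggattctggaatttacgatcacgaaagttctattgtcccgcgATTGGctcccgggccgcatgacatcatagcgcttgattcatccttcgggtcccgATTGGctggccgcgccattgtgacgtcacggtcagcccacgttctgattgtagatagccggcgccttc
SCD (chr10:100346983-100347232, plus strand): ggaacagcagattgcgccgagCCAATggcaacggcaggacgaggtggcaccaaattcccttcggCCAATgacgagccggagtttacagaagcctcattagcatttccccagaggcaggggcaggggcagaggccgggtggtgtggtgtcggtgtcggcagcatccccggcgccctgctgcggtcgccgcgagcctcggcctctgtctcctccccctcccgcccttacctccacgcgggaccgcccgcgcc
ACSL1 (chr4:184805554-184805803, minus strand): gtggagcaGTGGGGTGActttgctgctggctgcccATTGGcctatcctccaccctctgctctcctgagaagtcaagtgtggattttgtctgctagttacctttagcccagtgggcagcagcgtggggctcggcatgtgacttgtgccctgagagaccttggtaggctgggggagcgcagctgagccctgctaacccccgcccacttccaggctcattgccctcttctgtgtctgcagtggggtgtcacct

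The sterol regulatory element stood at 242 bases before 1 of the starts of ACSL1, in the 1 of its 5 RefSeq windows with the most matches. This window lies inside the span of the gene (184755595 to 184826818), and use of that start in these cells was not tested. The starts are those of RefSeq. In the counting annotation ACSL3, ELOVL5 and SCD begin at 222860934, 53349179 and 100347124, so their printed windows also run into the genes. The sterol regulatory element was in 0.883% of all 35116 windows. The E-box of ELOVL5 began 211 bases before its start (6.34% of all windows held one). CCAAT boxes were found in 11 of the 33 members with a window (32% of all windows), with 1 in ACSL3, 2 in SCD, 2 in ELOVL5 and 1 in the ACSL1 window printed. The half-site AGAACA was in windows of ACSL1, ACSL5 and HADH (12.4% of all windows), though not in the ACSL1 window printed. The full element (AGAACA, any 3 bases, then TGTTCT) was in none of the 33 members with a window and in 1 window of all. The GC box GGGCGG, not marked in capitals, was in 28 of the 33 members with a window (42.6% of all windows). A member was counted if any of its windows held the letters (47 windows in all). Counts of members and shares of windows are therefore unlike measures. These matches describe letters in a short window and say nothing of binding.

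Without androgen the synthesis enzymes SCD and FASN were among the most abundant members in LNCaP:C42. SCD, the desaturase that puts the first double bond into saturated chains, led with 513 ± 64.9 FPKM (mean ± SD, n = 3), followed by the oxidation enzyme ECHS1, a mitochondrial enoyl-CoA hydratase, with 305 ± 7.13 FPKM. FASN, fatty acid synthase, came next at 281 ± 22.3 FPKM and FADS2, the desaturase that opens polyunsaturated fatty acid synthesis, then at 161 ± 12.3 FPKM, before ACLY, which makes cytosolic acetyl-CoA from citrate (127 ± 5.15 FPKM), and ACSL1 (102 ± 5.91 FPKM). ECHS1 and FASN differed by no more than the sum of their SDs, whereas the steps from SCD to ECHS1, from FASN to FADS2 and from FADS2 to ACLY were wider than their SDs. At the low end were ACSL4 (1.35 ± 0.152 FPKM), MLYCD, which removes malonyl-CoA (1.26 ± 0.0137 FPKM), ACSL5 (0.411 ± 0.0784 FPKM) and ELOVL2, an elongase of long polyunsaturated chains, which held at most 3 counts in each of the 12 LNCaP:C42 libraries.

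In 22Rv1 SCD also led, at 357 ± 19.2 FPKM, before ECHS1 (116 ± 2.98 FPKM) and HADHA, a subunit of the mitochondrial trifunctional protein (108 ± 3.22 FPKM), whose levels lay close together. FASN, at 66.2 ± 8.72 FPKM, came after ACLY (78.8 ± 5.99 FPKM), at the level of ACADVL, the very-long-chain acyl-CoA dehydrogenase (66 ± 7.43 FPKM). FADS2 and ACSL1, both in the top 6 of LNCaP:C42, stood at 3.79 ± 0.465 and 1.68 ± 0.119 FPKM. Summed over the 13 synthesis genes the level was 1300.1 FPKM in LNCaP:C42 and 663 FPKM in 22Rv1, and over the 21 oxidation genes 826 and 586 FPKM.

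**Figure D1:**
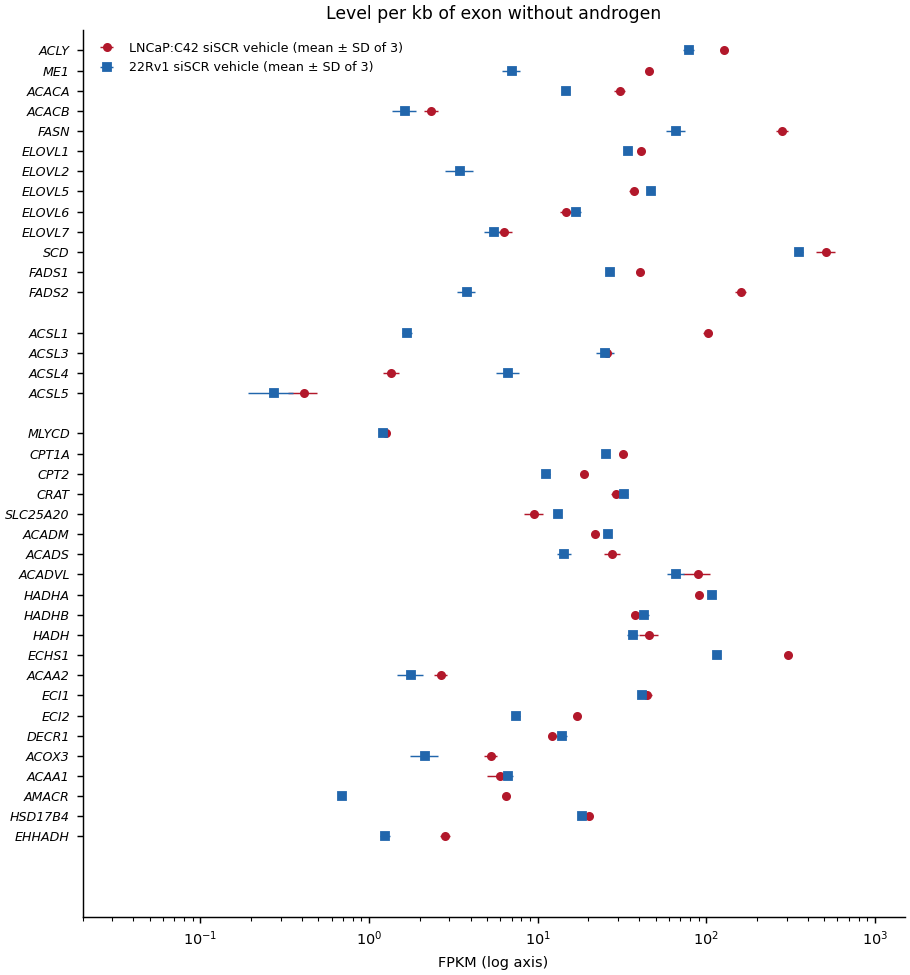
Mean level of each member in siSCR vehicle libraries, in FPKM on a log axis (points, mean of 3 libraries; bars, SD), for LNCaP:C42 (red circles) and 22Rv1 (blue squares), with synthesis at the top, the acyl-CoA synthetases in the middle and oxidation at the bottom. SCD was the most abundant member in both lines, ACSL1 and FADS2 lay far apart between the lines, and ELOVL2 is drawn for 22Rv1 alone because it was at or under 3 counts in LNCaP:C42.

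Compared in siSCR vehicle libraries, 17 of the 38 members were called between the lines, 2 higher and 15 lower in 22Rv1, where 31.2% and 27.9% of all 19437 genes tested were called higher and lower. The median member stood at −0.42 on the log2 scale (22Rv1 over LNCaP:C42), against 0.033 for all genes. By group, 1 of 13 synthesis genes was called higher and 6 lower, 1 of 4 synthetases higher and 1 lower, and 0 of 21 oxidation genes higher and 8 lower.

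ACSL1, which activates long-chain fatty acids, held 635, 678 and 604 CPM in LNCaP:C42 and 10.7, 9.75 and 11.2 CPM in 22Rv1. FADS2 held 1809, 1885 and 1621 against 47.7, 39.2 and 38.5 CPM. Both were lower in every 22Rv1 library, with log2 differences of −5.96 ± 0.13 (SE), adjusted p = 4.53e-23, and −5.45 ± 0.13, adjusted p = 1.59e-22. The 2 members higher in 22Rv1 were ELOVL2 and ACSL4. ELOVL2 reached 11.6, 13.3 and 16.8 CPM in 22Rv1, at least 84.7-fold above the floor of 3 counts per library in LNCaP:C42, and ACSL4, a synthetase that prefers arachidonate, held 9.18, 7.56 and 9.32 CPM in LNCaP:C42 against 39.8, 38.5 and 50.5 CPM in 22Rv1. Neither gene's libraries overlapped between the lines (ACSL4 2.27 ± 0.14 (SE), adjusted p = 7.45e-14).

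The other synthesis genes lower in 22Rv1 were ME1, a malic enzyme that supplies NADPH (−2.74), FASN (−2.13), ACACA, the cytosolic acetyl-CoA carboxylase (−1.10), ACLY (−0.73) and FADS1 (−0.64), the desaturase downstream of FADS2. ACLY fell under the 1.5-fold threshold with library size alone as scaling, and FADS1 in 4 alternatives. Among the 8 oxidation genes AMACR, a racemase of branched-chain acyl-CoA used as a marker of prostate cancer, differed most, with 32.2, 32.6 and 29.96 CPM in LNCaP:C42 and 3.19, 3.38 and 3.45 CPM in 22Rv1. All its 22Rv1 libraries were lower (−3.28 ± 0.19 (SE), adjusted p = 2.55e-14). Its count rests on part of the gene, since 64.8% of its exon bases are shared with other annotated genes, mainly the readthrough C1QTNF3-AMACR, and fragments there were left out by the counting.

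ECHS1 stood at 500.2, 480.2 and 500.1 against 192, 185 and 184 CPM, ACADS, the short-chain acyl-CoA dehydrogenase, at 79.2, 76.5 and 64 against 40.2, 40.1 and 33.7 CPM, and CPT2, the inner carnitine palmitoyltransferase, at 60.8, 65.8 and 65.2 against 39, 39.8 and 36.1 CPM. In all of these the lines did not overlap, with log2 differences of −1.44 (adjusted p = 6.17e-15), −0.99 (adjusted p = 1.06e-06) and −0.78 (adjusted p = 4.72e-10). ACOX3 (−1.34), ECI2 (−1.25), EHHADH (−1.22) and ACAA2 (−0.62) completed the list, and ACAA2 lost its call in 4 alternatives. Exons of CPT2 and ECI2 are shared with other genes over 29.9% and 29.8% of their bases.

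The question put to LNCaP:C42 was which genes answered androgen in control cells. In siSCR libraries R1881 changed 18 of the 37 members tested, 15 higher and 3 lower, where 7.39% of the 16435 genes tested were called higher and 7.72% lower. ELOVL2 was not tested here. Of the 12 synthesis genes 9 rose and 1 fell, of the 4 synthetases 3 rose and 1 fell, and of the 21 oxidation genes 3 rose, 1 fell and 17 were not called. The median log2 fold change was 0.83 in synthesis, 1.08 among the synthetases and −0.077 in oxidation, against −0.028 over all genes.

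FASN held 2697, 2635 and 2320.1 CPM in the vehicle libraries and 10888, 8080.3 and 8281 CPM with R1881. All R1881 libraries lay far above all vehicle libraries, replicate 1 highest, with a log2 fold change of 1.82 ± 0.15 (SE), adjusted p = 2.59e-07. ACACA rose from 368, 407 and 425 to 732, 735 and 691 CPM. Its groups did not overlap either (0.84 ± 0.10 (SE), adjusted p = 1.87e-05). ACACB, the acetyl-CoA carboxylase of the mitochondrial surface, whose malonyl-CoA restrains fatty acid entry, held 30.9, 37.6 and 33.2 against 35.3, 35.9 and 32.1 CPM, and its groups overlapped. The genes that supply acetyl-CoA and NADPH rose as well. ACLY went from 667, 687 and 633 to 1088, 942 and 1004 CPM (0.60 ± 0.08 (SE), adjusted p = 6.1e-05) and ME1 from 152, 152 and 156 to 269.8, 257 and 289 CPM (0.82 ± 0.13, adjusted p = 0.000327). Neither overlapped between treatments, but the ACLY change was close to the threshold and fell to 0.54 without the 5 libraries that stood apart.

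The elongases split. ELOVL5, which lengthens polyunsaturated chains, held 133, 142 and 150.4 CPM in vehicle and 614, 653 and 649 CPM with R1881. ELOVL7, which lengthens saturated chains, held 28.3, 26.2 and 32.3 and 115, 149.6 and 155 CPM. In both genes every R1881 library was higher, by 2.17 ± 0.09 (SE), adjusted p = 1.66e-10, and 2.27 ± 0.17, adjusted p = 9.13e-08. ELOVL6, which takes palmitate on to stearate, moved the other way, from 101, 105 and 117 to 52.3, 64.1 and 62.5 CPM. All its R1881 libraries were lower (−0.86 ± 0.12 (SE), adjusted p = 8.57e-05). ELOVL1, an elongase of very long saturated chains, changed by 0.31 (adjusted p = 0.0114), under the 1.5-fold threshold.

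All 3 desaturases rose. SCD held 2706, 3118 and 2427 CPM in vehicle and 6108, 4663 and 5046 CPM with R1881, FADS1 417, 439 and 391 and 812, 675 and 739 CPM, and FADS2 1809, 1885 and 1621 and 3531, 2791 and 2898 CPM. The treatments did not overlap in any of them, and replicate 1 was the highest R1881 library in each. The log2 fold changes were 0.93 ± 0.13 (SE), adjusted p = 6.51e-05 for SCD, 0.83 ± 0.08, adjusted p = 2.84e-06 for FADS1, and 0.79 ± 0.10, adjusted p = 4.22e-05 for FADS2. FADS1 (chromosome 11, 61799625 to 61829318, minus strand) lies inside the span of FADS2 (61792980 to 61867354, plus strand), and since strand was not used in counting, fragments from introns of one that fall on exons of the other cannot be told apart.

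The largest change of the 37 was in ACSL3, a synthetase of the endoplasmic reticulum and lipid droplets, which held 175, 189.6 and 197 CPM in vehicle and 1457, 1577 and 1542 CPM with R1881. Every R1881 library was far above every vehicle library (3.02 ± 0.10 (SE), adjusted p = 1.39e-11). ACSL1 rose from 635, 678 and 604 to 1639.8, 1342 and 1489 CPM and ACSL4 from 9.18, 7.56 and 9.32 to 18.4, 14.3 and 18 CPM. Neither overlapped (1.21 ± 0.12, adjusted p = 1.59e-06, and 0.95 ± 0.16, adjusted p = 0.000375). ACSL5, the mitochondrial and endoplasmic reticulum form, fell from 1.63, 1.48 and 2.12 to 0.701, 0.573 and 0.517 CPM (−1.54 ± 0.39 (SE), adjusted p = 0.00825), at levels near 1 CPM where counts are few. Per kilobase, ACSL3 passed from 25.9 ± 1.56 to 211 ± 8.54 FPKM, next to ACSL1 at 237 ± 23.7 FPKM.

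Oxidation showed fewer calls. ECI2, an isomerase that prepares unsaturated chains for oxidation, held 77.9, 77 and 81.6 CPM in vehicle and 183, 193 and 172 CPM with R1881. SLC25A20, the carrier of acylcarnitine into mitochondria, held 21.1, 16.2 and 19.2 and 35.3, 29.2 and 32.9 CPM, and ACOX3, a peroxisomal oxidase of branched chains, 18.6, 22.1 and 20.4 and 34.6, 34.2 and 31.2 CPM. All of these were higher in every R1881 library, by 1.21 ± 0.08 (SE), adjusted p = 3.78e-08, 0.78 ± 0.12, adjusted p = 0.000167, and 0.71 ± 0.11, adjusted p = 0.00022. ACAA2, the mitochondrial thiolase, was lower in every R1881 library (13.8, 12.2 and 14.5 against 8.12, 7.71 and 6.88 CPM, −0.84 ± 0.13, adjusted p = 0.000237). Of the genes for entry, the rate-limiting CPT1A stood at 210.5 ± 3.09 and 194 ± 14 CPM (mean ± SD, n = 3) and CPT2 at 63.9 ± 2.77 and 57.1 ± 1.10 CPM, neither called. Several genes had an adjusted p under 0.05 with smaller changes, namely HSD17B4 (0.51, adjusted p = 0.000503), ACAA1 (0.56, adjusted p = 0.00639), ACADVL (0.42, adjusted p = 0.0421), HADH (−0.32, adjusted p = 0.0436) and DECR1 (−0.38, adjusted p = 0.00735). Without the 5 libraries ACADVL stood at 0.19 (adjusted p = 0.0801) and HADH at −0.13 (adjusted p = 0.159), so that neither passed. In peroxisomes HSD17B4 and ACAA1 act on long chains, while HADH and DECR1 serve mitochondrial oxidation.

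**Figure D2:**
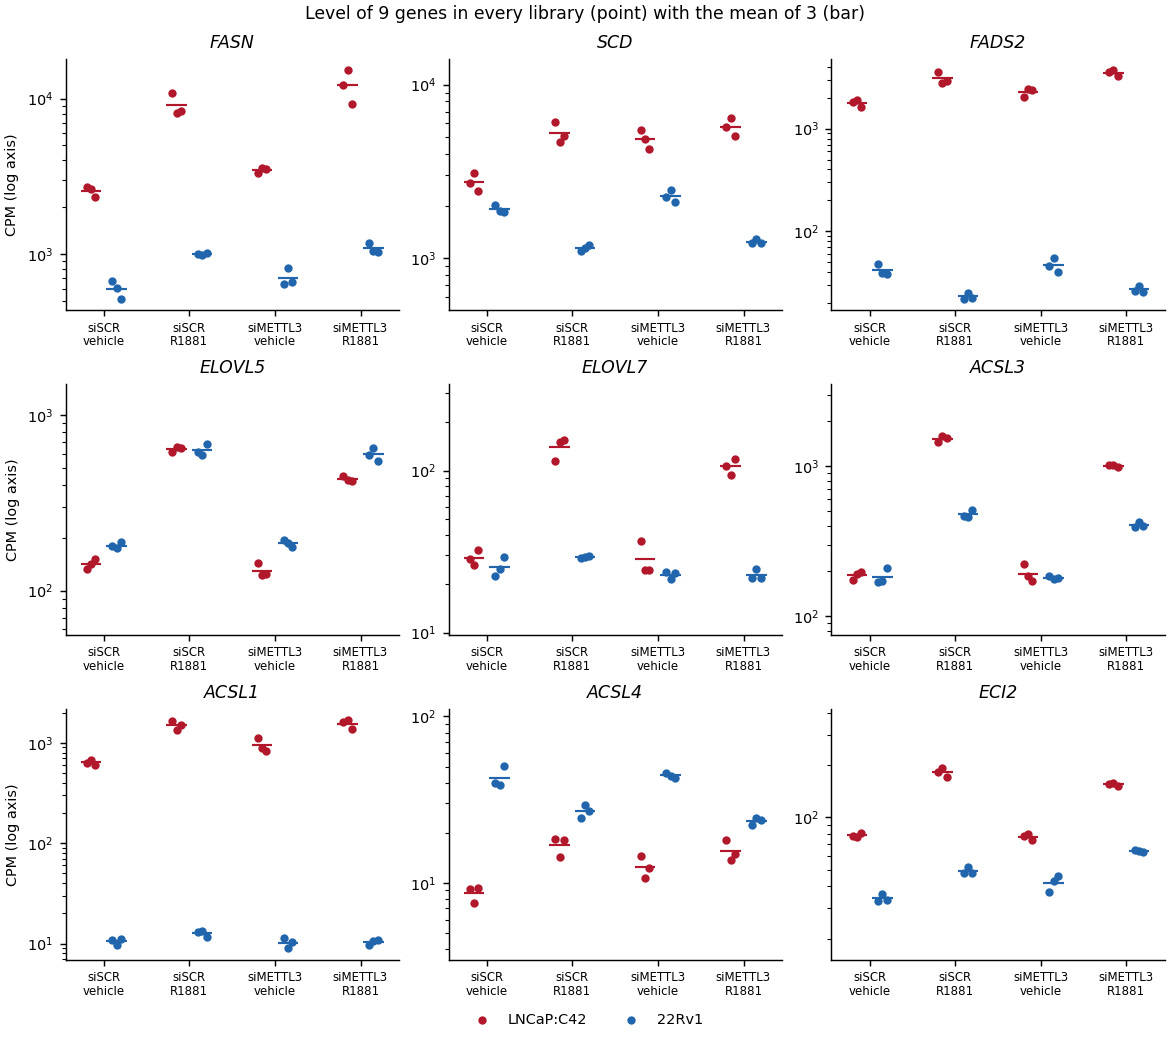
CPM of 9 members in every library (points; bars, mean of 3 libraries) on log axes, by siRNA pool and treatment, for LNCaP:C42 (red) and 22Rv1 (blue). ACSL3 and ELOVL5 rose with R1881 in both lines and under both pools, SCD, FADS2 and ACSL4 rose with R1881 in LNCaP:C42 siSCR and fell in 22Rv1, and ACSL1 stayed near 10 CPM in 22Rv1.

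In 22Rv1 siSCR libraries R1881 changed 10 of 38 members, 4 higher and 6 lower, where 4.19% of the 17865 genes tested were called higher and 9.64% lower. Synthesis genes were called 3 higher and 3 lower of 13, the synthetases 1 higher and 2 lower of 4, and oxidation genes 0 higher and 1 lower of 21. Medians were 0.21, −0.19 and −0.064 on the log2 scale, against 0.0021 over all genes.

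ELOVL5 rose most, from 178, 174 and 188 to 617, 593 and 686 CPM, followed by ACSL3, from 168, 171 and 208 to 466, 459 and 513 CPM. ELOVL2 rose from 11.6, 13.3 and 16.8 to 30.3, 31.8 and 35.8 CPM and FASN from 677, 603 and 519 to 1006, 982 and 1012 CPM. Every R1881 library was above every vehicle library in these genes. Their log2 fold changes were 1.83 ± 0.08 (SE), adjusted p = 4.09e-14, 1.41 ± 0.08, adjusted p = 6.17e-12, 1.25 ± 0.12, adjusted p = 2.43e-08, and 0.75 ± 0.09, adjusted p = 1.72e-06. ELOVL2 with R1881 was at least 205-fold above the floor in LNCaP:C42.

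The genes that fell were ACACB (28.2, 21.1 and 22.1 to 15.4, 14.4 and 12.9 CPM), SCD (2032, 1870.4 and 1842 to 1104, 1152 and 1201 CPM) and FADS2 (47.7, 39.2 and 38.5 to 22.2, 25.2 and 22.3 CPM) in synthesis. No R1881 library of these reached a vehicle library (−0.73 ± 0.12 (SE), adjusted p = 8e-05, −0.72 ± 0.07, adjusted p = 4.09e-08, and −0.83 ± 0.11, adjusted p = 6.72e-06). The synthetases ACSL4 (39.8, 38.5 and 50.5 to 24.4, 29.5 and 27 CPM) and ACSL5 (1.06, 0.872 and 1.53 to 0.161, 0.444 and 0.427 CPM) and the peroxisomal bifunctional enzyme EHHADH (6.06, 6.16 and 5.37 to 3.71, 3.55 and 4.32 CPM) fell as well, again without overlap. Their changes were −0.66 ± 0.10, adjusted p = 3.35e-05, −1.72 ± 0.42, adjusted p = 0.00333, and −0.59 ± 0.15, adjusted p = 0.00429. ACSL4 went to −0.52, under the threshold, when replicate 3 of siSCR vehicle was left out, and EHHADH dropped under 1.5-fold in 4 of 6 fits without 1 library.

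Among the oxidation genes not called in 22Rv1, ECHS1 (−0.56, adjusted p = 6.55e-06) and ECI2 (0.53, adjusted p = 4.58e-05) came closest to the threshold, in opposite directions, and SLC25A20 (0.43, adjusted p = 0.000591), HSD17B4 (0.38, adjusted p = 6.84e-05) and HADH (−0.35, adjusted p = 0.00222) had smaller changes. The elongase ELOVL1 changed by 0.36 (adjusted p = 0.000756).

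**Figure D3:**
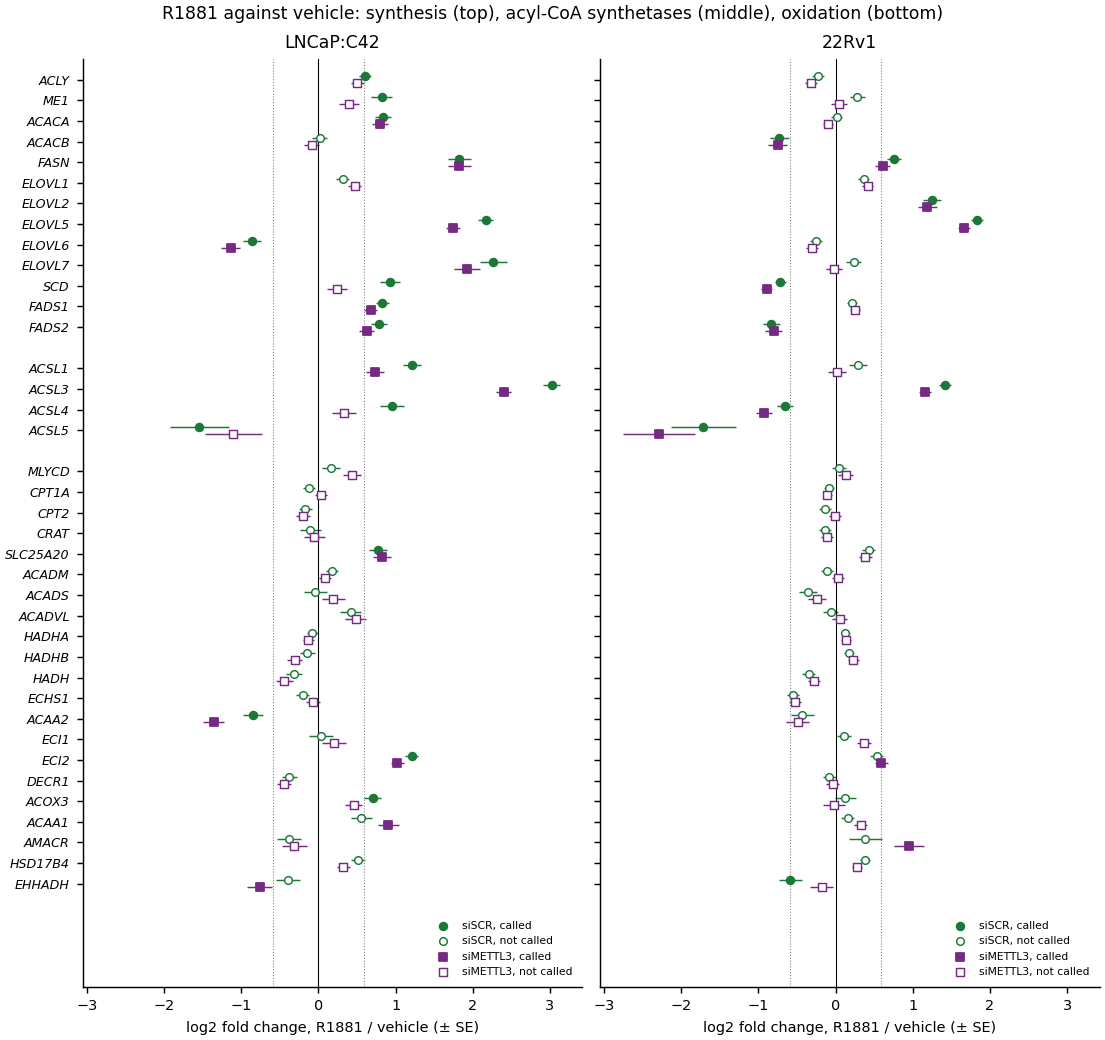
Log2 fold change of R1881 over vehicle (± SE) for every member tested, by line (panels) and siRNA pool (green circles, siSCR; purple squares, siMETTL3), with filled symbols for called genes and dotted lines at 1.5-fold. In LNCaP:C42 most synthesis genes and synthetases lie to the right, whereas in 22Rv1 SCD, FADS2, ACACB, ACSL4 and ACSL5 lie to the left, and most oxidation genes lie between the dotted lines in both.

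Called in both lines were 4 members in the same direction (FASN, ELOVL5 and ACSL3 higher, ACSL5 lower) and 3 in opposite directions (SCD, FADS2 and ACSL4, higher in LNCaP:C42 and lower in 22Rv1). These were 7 of the 18 calls in LNCaP:C42 and 7 of the 10 in 22Rv1. The share of all genes called in both lines was not taken, so these counts have no background. The difference between the responses was tested in a fit of all 24 libraries, and 18 of 38 members passed an adjusted p of 0.05, 1 with the larger value in 22Rv1 and 17 with the larger value in LNCaP:C42, where 16.8% of all genes passed. By group these were 11 of 13 synthesis genes, 3 of 4 synthetases and 4 of 21 oxidation genes. ELOVL7 differed most (−2.04 ± 0.20 (SE), adjusted p = 2.54e-08), with a called rise in LNCaP:C42 and overlapping groups in 22Rv1 (22.3, 24.6 and 29.2 against 29, 29.4 and 29.9 CPM). SCD (−1.65 ± 0.15, adjusted p = 6.55e-09), FADS2 (−1.62 ± 0.16, adjusted p = 2.29e-08) and ACSL4 (−1.62 ± 0.19, adjusted p = 7.07e-07) followed with opposite signs in the lines. ACSL3 rose in both, by less in 22Rv1 (−1.61 ± 0.13, adjusted p = 5.21e-10), as did FASN (−1.07 ± 0.18, adjusted p = 0.000139). ELOVL6 was the exception in direction (0.60 ± 0.14, adjusted p = 0.004), with a called fall in LNCaP:C42 and 119.6, 117 and 133 against 95.4, 98.9 and 111 CPM in 22Rv1. The differences of ELOVL5, ACADM, ECHS1 and ACOX3 were lost in at least 1 alternative. For ELOVL2 the LNCaP:C42 libraries held at most 3 counts, so that a difference in response was not detectable at this depth.

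With METTL3 depleted, R1881 changed 14 of the 37 members tested in LNCaP:C42, 11 higher and 3 lower (background 5.09% higher and 5.54% lower), and 11 of 38 in 22Rv1, 6 higher and 5 lower (background 4.18% higher and 9.29% lower). In LNCaP:C42 synthesis genes were called 6 higher and 1 lower of 12 (median 0.56), the synthetases 2 higher of 4 (median 0.54) and oxidation genes 3 higher and 2 lower of 21 (median 0.033). In 22Rv1 synthesis genes were called 3 higher and 3 lower of 13, synthetases 1 higher and 2 lower of 4, and oxidation genes 2 higher of 21.

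In LNCaP:C42 12 members were called under both pools with 1 direction each (FASN, ACACA, ELOVL5, ELOVL6, ELOVL7, FADS1, FADS2, ACSL1, ACSL3, SLC25A20, ECI2 and ACAA2). Shares of all genes called under both pools, or under 1 alone, were not taken in either line, so these counts have no background. Under siSCR alone the call was met by ACLY, ME1, SCD, ACSL4, ACSL5 and ACOX3, whose values under siMETTL3 were 0.50, 0.40, 0.24, 0.34, −1.10 and 0.46 on the log2 scale. For ME1 this turned on 1 library, since without the 5 libraries that stood apart, or without replicate 1 of siMETTL3 vehicle alone, it was called under siMETTL3 too (0.63 in both). ACSL5 missed only the p threshold (adjusted p = 0.0534) and was called with library size alone as scaling and with no filter on low counts. Under siMETTL3 alone it was met by ACAA1, the peroxisomal thiolase, which shares 21.2% of its exon bases with other genes (29.9, 41 and 39.8 to 75.4, 64.2 and 66.2 CPM, 0.91 ± 0.13, adjusted p = 0.000178), and EHHADH (12.5, 13.5 and 10.7 to 6.65, 8.57 and 6.20 CPM, −0.76 ± 0.16, adjusted p = 0.00406). In 22Rv1 9 members were called under both pools, EHHADH under siSCR alone, and AMACR (0.95 ± 0.19, adjusted p = 0.000593) and ECI2 (0.59 ± 0.08, adjusted p = 1.05e-05) under siMETTL3 alone, the latter at the threshold and lost in 4 alternatives (0.51 without the 5 libraries).

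Whether the androgen response itself differed between the pools was tested by the interaction. By edgeR 0 of 37 members passed in LNCaP:C42 (0% of all genes) and 0 of 38 in 22Rv1 (0.0168% of all genes), with 7 and 1 members at an unadjusted p under 0.05, and by DESeq2 1 (ACSL3) and 0. The largest values in LNCaP:C42 were −0.69 (adjusted p = 0.284) for SCD, −0.62 (adjusted p = 0.235) for ACSL3 and −0.62 (adjusted p = 0.354) for ACSL4, each a smaller rise with METTL3 depleted. ACSL1 stood at −0.48 (adjusted p = 0.336) and ELOVL5 at −0.42 (adjusted p = 0.314). By edgeR with all libraries but no filter on low counts, 3 members passed in LNCaP:C42. They were SCD (−0.71, adjusted p = 3.28e-05), ACSL3 (−0.64, adjusted p = 0.00371) and ACSL1 (−0.49, adjusted p = 0.045). Without the 5 libraries that stood apart 3 members passed in LNCaP:C42, ACSL3 (−0.60, adjusted p = 0.000749), ELOVL5 (−0.43, adjusted p = 0.00549) and SCD (−0.42, adjusted p = 0.0448). In 22Rv1 1 passed, ACSL3 (−0.35, adjusted p = 0.0138), which stood at −0.26 (adjusted p = 0.81) with all libraries. That fit leaves out libraries for their spread, so its p-values tend to be too small and do not establish an interaction. No share of all genes is given for it, for the fit without a filter or for DESeq2.

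Knockdown itself moved few members. In vehicle-treated LNCaP:C42 1 of 37 was called (1.2% of all genes), SCD, which held 2706, 3118 and 2427 CPM with siSCR and 5513, 4884 and 4281 CPM with siMETTL3. Every siMETTL3 library was higher (0.81 ± 0.13 (SE), adjusted p = 0.00977), though the call was lost in 3 of 6 fits without 1 library (replicates 1 and 3 of siSCR and 2 of siMETTL3, adjusted p up to 0.0694). Without the 5 libraries that stood apart it was 0.63 (adjusted p = 0.000864). Below the threshold were ACSL1 (0.54, adjusted p = 0.0302) and FASN (0.43, adjusted p = 0.148), which held 3322, 3569 and 3551 CPM with siMETTL3. In vehicle-treated 22Rv1 0 of 38 members were called by edgeR (0.202% of all genes, 8 members at an unadjusted p under 0.05) and 0 by DESeq2. ME1 had the lowest adjusted p, at 23.6, 20.8 and 26.4 against 18.6, 15.7 and 18 CPM (−0.45 ± 0.10, adjusted p = 0.0464), a change short of 1.5-fold. The difference between the lines in vehicle passed for 0 of 38 members by edgeR (0.458% of all genes, 9 members at an unadjusted p under 0.05). By DESeq2 it passed for 2, SCD and ACSL1, with no share of all genes taken. Their edgeR values were −0.58 (adjusted p = 0.0768) and −0.62 (adjusted p = 0.09).

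With R1881, siMETTL3 changed 1 of 37 members in LNCaP:C42 (0.7% of all genes in either direction), ACSL3, which fell from 1457, 1577 and 1542 to 1013, 1013 and 984 CPM. No siMETTL3 library reached the siSCR range (−0.60 ± 0.10 (SE), adjusted p = 0.0118), but the call was lost in 4 of 6 fits without 1 library (replicates 2 and 3 of siSCR and 1 and 2 of siMETTL3, adjusted p up to 0.0921). ELOVL5 showed the same pattern of levels, 614, 653 and 649 against 451, 423 and 421 CPM, with a change just short of 1.5-fold (−0.57 ± 0.09, adjusted p = 0.0109). Without the 5 libraries, or without replicate 1 of siSCR R1881 alone, 4 members were called (shares of all genes not taken). Without the 5 these were ACSL3 (−0.66, adjusted p = 2.32e-07), ELOVL5 (−0.62, adjusted p = 3.46e-07), EHHADH (−0.65, adjusted p = 0.00275) and ACADVL (0.59, adjusted p = 1.31e-05), against 0.52 (adjusted p = 0.0681) for ACADVL with all libraries. FASN, at 12209.8, 15150.3 and 9275 CPM, overlapped with siSCR (0.43 ± 0.14, adjusted p = 0.0918).

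In 22Rv1 with R1881 2 of 38 members were called (3.29% of all genes). ME1 fell from 28.4, 29.1 and 27.8 to 19.1, 16.7 and 18.5 CPM and AMACR rose from 5.16, 4.55 and 3.25 to 7.89, 7.02 and 7.81 CPM. The pools did not overlap in either gene (−0.69 ± 0.10 (SE), adjusted p = 0.000549, and 0.77 ± 0.19, adjusted p = 0.0115), and AMACR lost the call in 2 of 6 fits without 1 library (replicate 3 of siSCR and 1 of siMETTL3, adjusted p up to 0.0726). At an adjusted p under 0.05 with any fold there were 9 members, where 16.2% of all genes passed. Besides the called pair these were 4 oxidation genes that were higher, ACADS (0.56, adjusted p = 0.00518), ECI1, an isomerase for unsaturated chains (0.45, adjusted p = 0.00349), ACADVL (0.38, adjusted p = 0.0107) and ECI2 (0.35, adjusted p = 0.00894), and 3 others that were lower, ELOVL2 (−0.46, adjusted p = 0.0101), ELOVL7 (−0.41, adjusted p = 0.00996) and ACSL3 (−0.28, adjusted p = 0.0192).

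**Figure D4:**
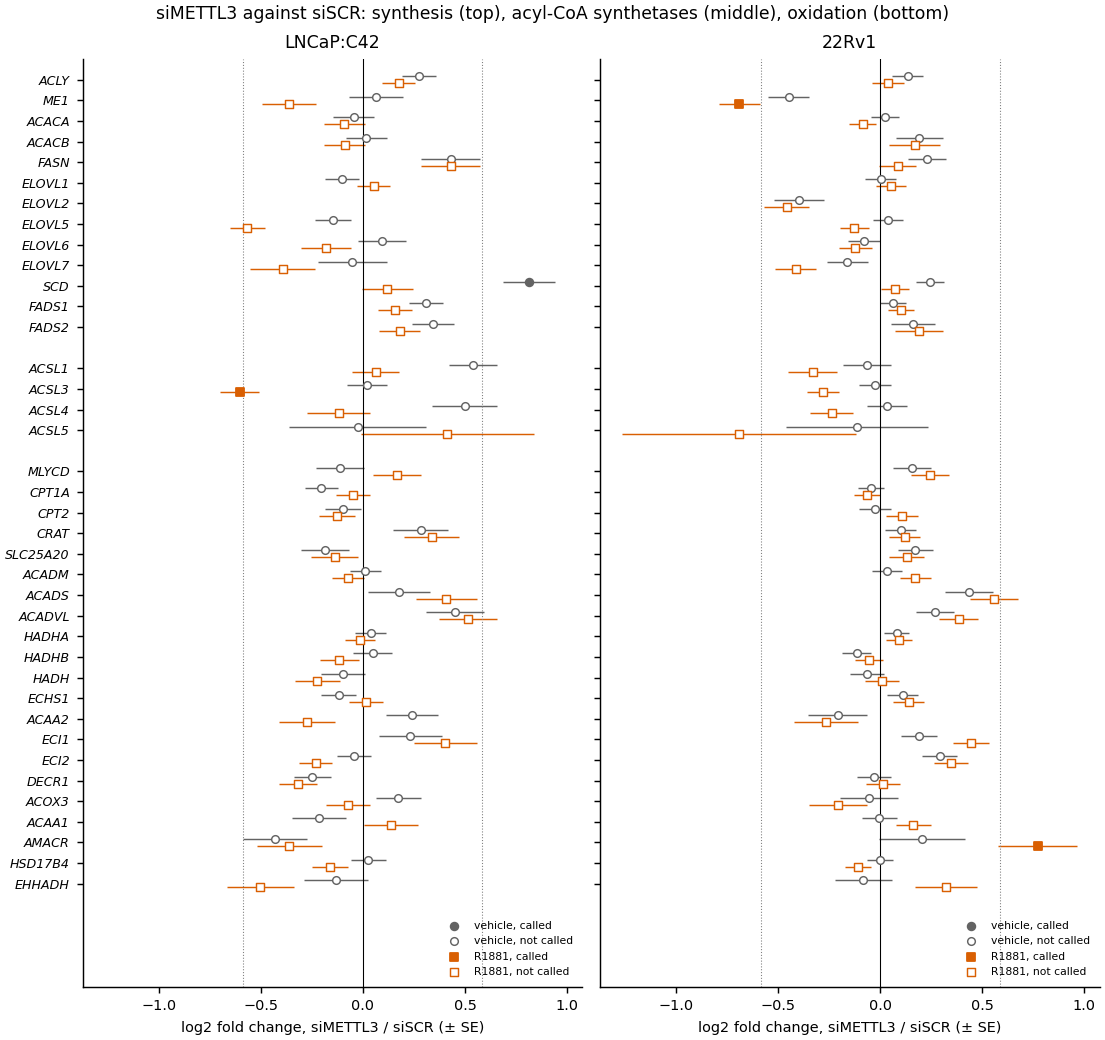
Log2 fold change of siMETTL3 over siSCR (± SE) for every member tested, by line (panels) and treatment (grey circles, vehicle; orange squares, R1881), with filled symbols for called genes and dotted lines at 1.5-fold. Filled symbols are SCD in vehicle and ACSL3 with R1881 in LNCaP:C42, and ME1 and AMACR with R1881 in 22Rv1, and ELOVL2 was tested in 22Rv1 alone.

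Beyond the 38, 99 genes of the same pathways were followed, made up of regulators of lipogenesis and of oxidation, further enzymes, and genes of fat storage and release. In LNCaP:C42 siSCR R1881 raised 16 and lowered 3 of the 91 tested, and in 22Rv1 it raised 5 and lowered 10 of 91, beside 7.39% and 7.72% of all genes in the first line and 4.19% and 9.64% in the second. SREBF1, the gene of the transcription factor that drives fatty acid synthesis, held 901, 939.7 and 829 CPM in vehicle and 1647, 1238 and 1299 CPM with R1881 in LNCaP:C42, and 206, 178 and 155 against 119, 116 and 114 CPM in 22Rv1. It was higher in every R1881 library of the first line (0.64 ± 0.12 (SE), adjusted p = 0.00105) and lower in every one of the second (−0.61 ± 0.09, adjusted p = 2.73e-05), and the difference between the responses was −1.26 ± 0.16, adjusted p = 2.17e-06. The LNCaP:C42 rise went to 0.48, under the threshold, as did that of SCAP described next, without the 5 libraries that stood apart, and the 22Rv1 fall to −0.51 without replicate 1 of siSCR vehicle. SREBF2, its partner for cholesterol genes, changed by 0.44 (adjusted p = 0.00668) and −0.17 (adjusted p = 0.0733).

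Of the other lipogenic regulators INSIG1 and INSIG2, which hold the sterol regulatory proteins in the endoplasmic reticulum, and SCAP, which carries them out of it, rose in LNCaP:C42 (1.72, 0.78 and 0.60). THRSP, a lipogenic nuclear protein, rose there too (1.99), from 0.543, 0.899 and 0.515 to 3.74, 1.66 and 2.48 CPM, where counts are few. MLXIPL, the carbohydrate response factor, fell in 22Rv1 (−0.71). Among oxidation regulators PPARA, a receptor that induces oxidation genes, rose in LNCaP:C42 (0.95 ± 0.17 (SE), adjusted p = 0.000587) and PRKAA2, a catalytic subunit of AMP-activated kinase, rose too (2.15). PPARA in 22Rv1 changed by 0.22 (adjusted p = 0.0575), and the coactivator PPARGC1A by −0.30 (adjusted p = 0.304) in LNCaP:C42 and 0.52 (adjusted p = 0.000687) in 22Rv1, which passed the fold threshold without the 5 libraries (0.65). In LNCaP:C42 the acyl-CoA dehydrogenase ACADL rose from 7.60, 7.62 and 9.03 to 72.9, 89.6 and 87.4 CPM (3.36 ± 0.15, adjusted p = 2.97e-10), and its groups lay far apart. It rose in 22Rv1 also (1.32). The acetyl-CoA synthetases went different ways, ACSS2 rising in LNCaP:C42 (1.55), ACSS3 falling there (−1.56), and ACSS1 falling in both lines (−1.25 and −1.04). CROT, the peroxisomal carnitine octanoyltransferase, and LPIN1, a phosphatidate phosphatase, rose in LNCaP:C42 (1.32 and 0.84).

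In 22Rv1 DBI, the acyl-CoA binding protein, went from 30.6, 30.1 and 24 to 235, 225 and 258 CPM with R1881, and DGAT2, which makes triglycerides, from 19.9, 14.9 and 14.3 to 4.09, 3.94 and 3.36 CPM. The treatments were far apart in both (3.10 ± 0.12 (SE), adjusted p = 2.02e-14, and −2.09 ± 0.17, adjusted p = 1.94e-09). GPAT3, a glycerol phosphate acyltransferase (0.92), and PECR, a peroxisomal enoyl-CoA reductase (0.63), rose. CPT1C, the brain form of the entry enzyme (−1.13), SLC27A3, of the fatty acid transport family (−0.62), and the desaturase SCD5 (−1.964) fell. SCD5 went from 1.44, 1.85 and 0.821 to 0.484, 0.111 and 0.427 CPM, levels where counts are few. PECR lost its call with library size alone as scaling and without replicate 1 of either siSCR group (down to 0.50), and SLC27A3 without replicate 1 of siSCR vehicle or 3 of siSCR R1881 (−0.57 and −0.58). Knockdown in vehicle-treated LNCaP:C42 raised INSIG1 (0.75), INSIG2 (0.71) and ACSS2 (0.64) and lowered CROT (−0.69), 4 of the 91 genes (1.2% of all genes). Each of these calls was lost in 2 or 3 of 6 fits without 1 library, those without replicates 1 and 3 of siSCR in all 4 genes. ACSS2 also fell under 1.5-fold without the 5 libraries (0.53). SREBF1 and SREBF2 stood at 0.31 (adjusted p = 0.205) and 0.31 (adjusted p = 0.163) in that comparison. With R1881 knockdown raised MLXIPL in LNCaP:C42 (0.63, adjusted p = 0.0228), the 1 of 91 genes called, beside 0.7% of all genes in either direction. In 22Rv1 it raised ETFB, an electron carrier of beta-oxidation (0.69, adjusted p = 0.00283), the 1 of 91 called, beside 3.29% of all genes in either direction. MLXIPL lost its call in 4 of 6 fits without 1 library.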

How the data were processed

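RNA-seq counts per gene were taken for all 24 libraries as the authors deposited them. For these the authors used Trim Galore for trimming, STAR for alignment (GRCh38) and featureCounts 1.5.0-p1 with Ensembl 83 genes for counting, without using strand and leaving out fragments of several genes or places. The counts were fitted by edgeR 4.0.16 (R 4.3.3) with TMM scaling and quasi-likelihood tests after filterByExpr (10 counts, 15 in total), on the 12 libraries of a line, or all 24 for differences between lines. Interactions, and differences between lines in a response or a knockdown effect, were called at an adjusted p under 0.05 alone. The comparison of levels between the lines kept the 1.5-fold threshold. Groups came from the sample labels. Replicate numbers did not pair libraries (mean correlation of deviations −0.0136 in LNCaP:C42 and −0.00934 in 22Rv1, 18 pairs each). Exon overlaps and positions are of the deposited annotation. Alternatives were other scaling, filters, DESeq2 1.42.0, fits of the 6 libraries compared, a replicate block, no fold threshold, and each library left out. Leaving out the 5 libraries that stood apart was chosen after seeing the data. The members and lists were chosen with earlier results of these data known. Named genes were METTL3, the members, up to 12 called genes per line of the other lists with the lowest adjusted p, those called after knockdown, and 4 regulators whatever their values. Of the genes that met this rule, 1 is not reported here. The scripts were tested on simulated data.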

Additional observations from a re-analysis of the deposited data

Results flagged for a closer look

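The response to R1881 in siSCR cells differed between the lines for 18 of 38 members by the test of the difference itself (edgeR, adjusted p under 0.05, 3 libraries in each of the 4 groups). Among all 19437 genes tested 16.8% passed. The values are the log2 response in 22Rv1 minus that in LNCaP:C42. In synthesis the difference was −0.83 for ACLY, −0.54 for ME1, −0.83 for ACACA, −0.75 for ACACB and −1.07 for FASN. The elongases stood at −0.34 (ELOVL5), 0.6 (ELOVL6) and −2.04 (ELOVL7), and the desaturases at −1.65 (SCD), −0.62 (FADS1) and −1.62 (FADS2). Among the synthetases it was −0.93 for ACSL1, −1.61 for ACSL3 and −1.62 for ACSL4. In oxidation it was −0.29 for ACADM, −0.35 for ECHS1, −0.67 for ECI2 and −0.58 for ACOX3. The differences of ELOVL5, ACADM, ECHS1 and ACOX3 were lost in at least 1 alternative.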

How the results depend on the processing

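Of 92 calls of members over the comparisons, 80 held in every alternative with all libraries or without the 5 that stood apart, and 76 also with each library left out. Without a fold threshold, R1881 in LNCaP:C42 had 24 members called under siSCR and 23 under siMETTL3 (4081 and 2728 of all 16435 genes). Knockdown in that line had 2 in vehicle and 2 with R1881 (257 and 154 of all genes). In 22Rv1, R1881 had 22 and 23 under siSCR and siMETTL3 (5903 and 5917 of all 17865 genes). Knockdown there had 1 in vehicle and 9 with R1881 (100 and 2897 of all genes). Between the lines 28 members passed (14360 of all 19437 genes). Without the 5 libraries 4 were called for knockdown with R1881 in LNCaP:C42, 3 for its interaction and 1 for that of 22Rv1. With no filter on low counts 3 passed the LNCaP:C42 interaction and 2 the difference in knockdown between lines, and with DESeq2 1 and 2. Shares of all genes were not taken for the fits without the 5 libraries, without a filter, by DESeq2 or without 1 library. Leaving out 1 library gave 0 to 2 for knockdown in vehicle and 0 to 4 with R1881 in LNCaP:C42, 0 to 1 and 1 to 3 in 22Rv1, and 0 to 2 for the difference between lines in knockdown. The METTL3 interaction in LNCaP:C42 (0.04) turned to −0.0147, −0.0394 and −0.0147 in 3 such fits, over a range of −0.0394 to 0.0941. The replicate block left the counts at 18, 14, 1, 1, 0, 10, 11, 0, 2, 0, 17, 18 and 0, and changed no call of a member. Under siMETTL3 FADS2 in LNCaP:C42 and FASN in 22Rv1 fell under 1.5-fold without the 5 libraries (0.54 each). The causes were not tested.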

Other observations

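FASN took 0.23% to 0.269% of all counted fragments in the siSCR vehicle libraries of LNCaP:C42, ranking 16 to 19 among all genes by count, and 0.755% to 0.971% with R1881, ranking 3 to 5. With siMETTL3 and R1881 its share was 0.875% to 1.378%. In the 12 22Rv1 libraries it took 0.0548% to 0.121% and ranked 58 to 168. Of the 94 other pathway genes tested between the lines in siSCR vehicle, 18 were higher and 42 lower in 22Rv1, beside 31.2% and 27.9% of all genes (median −0.49 on the log2 scale). SREBF1 stood at −2.35 on that scale, while the coactivator PPARGC1A stood at 1.57 and SREBF2 at 0.62.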
